A study of Mus musculus with 6 samples.

Results

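The genes of histone lysine modifying enzymes were followed in long-term haematopoietic stem cells (LT-HSCs) of mice. They were taken as the protein-coding genes whose symbols begin with Kmt, Kdm, Kat, Hdac or Setd and a digit, with at least 10 counts in 3 or more of the 6 libraries. Kdm5c, Kdm5d and Kdm6a, which lie on the sex chromosomes, were left out by that rule. It gave 49 genes among 55357 counted identifiers. Hdac6 and Hdac8 of the 49 lie on the X chromosome and were kept. Of the 53 protein-coding genes with such symbols, 3 were left out by name and Kdm4d fell below the count rule. Kdm4d had 0, 62 and 11 counts in knockout libraries and 3, 0 and 0 in wild-type libraries. Just inside the rule stood Kat6b with 302, 190 and 0 counts in knockout and 243, 2 and 0 in wild-type libraries, and Kmt2b with 12, 1 and 0 counts in knockout and 158, 172 and 2 in wild-type libraries. All 49 also passed the filter on low counts of the test across all genes.

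Young mice gave 6 bone marrow libraries, 3 from Dcaf8 knockout animals (Dcaf8 KO) and 3 from wild-type animals (WT). The Dcaf8 protein brings targets to a cullin-4 ubiquitin ligase, and the comparison bears on how its loss impairs blood stem cells. The cells were sorted as lineage-negative, Sca-1-positive and c-Kit-positive cells with CD150 and without CD48, and each library was amplified from 50 cells. The sources used here do not give the allele, any Cre driver, the strain, the sex or the exact age.

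Histones carry methyl and acetyl groups on lysines of their tails, and these marks are set and removed by opposing enzymes. Methylation of H3K4 marks active promoters and enhancers and that of H3K36 marks transcribed gene bodies, whereas methylation of H3K9, H3K27 and H4K20 is linked to silencing or compact chromatin. Acetyltransferases (Kat genes) open chromatin by acetylating lysines, and deacetylases (Hdac genes) reverse this, mostly as catalytic subunits of co-repressor complexes. In blood stem cells several of these enzymes are known from mouse knockouts to be needed for self-renewal, among them the products of Kmt2a, Kat6a, Kat7 and Hdac3.

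Total counts ran from 14461864 to 22386387 in Dcaf8 KO libraries and from 17790290 to 20881139 in WT libraries, and the 49 genes took 0.271 to 0.301% of the counts in KO and 0.277 to 0.327% in WT libraries. Dcaf8 itself stood at 74.3, 38.1 and 45.2 CPM in KO replicates 1 to 3, against 290.5, 292.7 and 203.8 CPM in WT replicates 1 to 3. Every KO library lay below every WT library, and the adjusted p was 0.739 by edgeR and 1.98e-09 by DESeq2. CPM here are counts scaled to library size after TMM correction for library composition. All 14 genes of the LT-HSC marker list were counted in every library. The list held Cd48, whose protein the sort excluded, at 9.78, 34.4 and 16.6 CPM in KO and 7.31, 11.7 and 0.05 CPM in WT. Flt3, also on it, stood at 46.9 to 108.2 CPM in KO and 55.5 to 82.8 CPM in WT libraries. Cd34 stood at 278 to 427 CPM in KO and 292 to 322 CPM in WT libraries. Counts of the list therefore do not by themselves show cell identity. Some libraries stood apart. The 14 neutrophil granule genes summed to 232 to 289 CPM in KO libraries, and to 123, 6441 and 175 CPM in WT replicates 1 to 3, with Ctsg and Mmp8 at 0 throughout. Prtn3 alone stood at 245.8, 275.6 and 202 CPM in KO and 112.3, 155.6 and 145.1 CPM in WT libraries. It made up most of the sum outside WT replicate 2. KO replicate 3 carried Xist at 50.7 CPM and Ddx3y at 0, while no other library exceeded 1.24 CPM of Xist. Ddx3y stood at 123.2 and 56.4 CPM in KO replicates 1 and 2 and at 89.6 to 153.7 CPM in WT libraries. By these genes KO replicate 3 was of female type and the other libraries of male type. The X-linked Hdac6 and Hdac8 were compared across this difference. Detected genes numbered 16508 to 17015 in KO libraries and 16393, 16183 and 15244 in WT replicates 1 to 3. The 15 mitotic genes summed to 1237 to 2046 CPM in KO libraries and to 2193, 578 and 447 CPM in WT replicates 1 to 3. The 10 B, T and natural killer cell genes summed to 82.7 to 111.9 CPM in KO and 64.9 to 101.3 CPM in WT libraries, with Ms4a1, Cd3e, Cd3g and Ncr1 at 0. Most of that was Cd79b, at 80.2 to 99.99 CPM in KO and 62.2 to 98.3 CPM in WT libraries. The 8 stromal and endothelial genes summed to 49.3 to 76.2 CPM in KO and 56.5 to 59.1 CPM in WT libraries, with Cdh5, Cxcl12, Lepr and Pdgfra at 0. Most of that was Emcn, at 40.9 to 64.6 CPM in KO and 49.4 to 55.0 CPM in WT libraries. Macrophage and monocyte genes (10 genes, Adgre1 and Ccr2 at 0) summed to 414 to 578 CPM in KO and 445 to 968 CPM in WT libraries. Most of that was Lyz2, at 388 to 494 CPM in KO and 421 to 879 CPM in WT libraries. The part of these differences in the results on single enzymes was not tested beyond the fits without each library. With bulk RNA of 50 cells, fewer cells of a type and less RNA per cell cannot be told apart.

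LT-HSCs expressed the family over a wide range of levels. To compare genes, counts were divided by exon length and scaled to a common total (TPM), and the median over the 6 libraries was 12.9 TPM for the middle gene of the 49. The class I deacetylase genes Hdac1, Hdac2 and Hdac3 stood highest. Hdac1 and Hdac2, the interchangeable catalytic subunits of the Sin3, NuRD and CoREST co-repressor complexes, had median levels of 292 and 206 TPM, and Hdac3, the catalytic subunit of the NCoR and SMRT complexes, had 107 TPM. These 3 genes took 36.8% of the summed TPM of all 49. Next came Kat7 at 82.5 TPM, which encodes the acetyltransferase HBO1, then Hdac10 at 71.1 TPM, Setd6 at 62.6 TPM and Kat2a at 60.3 TPM. In all, 10 genes exceeded 50 TPM and 9 lay under 5 TPM.

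Per length, methyltransferases of H3K4 stood low and demethylases of the same residue stood several times higher. The 7 H3K4 methyltransferase genes had medians from 0.0979 TPM (Kmt2b) to 8.89 TPM (Setd1a). Setd1a shares exon bases with another annotated gene on the same strand, and how such reads were counted is not stated, so its level is less certain. The 4 H3K4 demethylase genes ranged from 17.6 TPM (Kdm5b) to 55.2 TPM (Kdm1b). Class IIa deacetylases, which shuttle between nucleus and cytoplasm under signals, had medians of 3.17 TPM (Hdac9) to 11.1 TPM (Hdac5), well under the 23.6 to 292 TPM of class I. Neighbours in this order often did not differ beyond their spread. Kmt2c at 3.996 ± 0.83 TPM in KO and 6.52 ± 0.71 TPM in WT libraries, and Kmt2a at 3.30 ± 0.91 TPM in KO and 5.76 ± 1.31 TPM in WT libraries (SD, n = 3 per group), were of like level. Hdac1 at 284 ± 50.8 TPM in KO and 286.5 ± 10.2 TPM in WT libraries lay above Hdac3 at 98.5 ± 15.01 TPM in KO and 107 ± 25.4 TPM in WT libraries by far more than either spread.

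**Figure D1:**
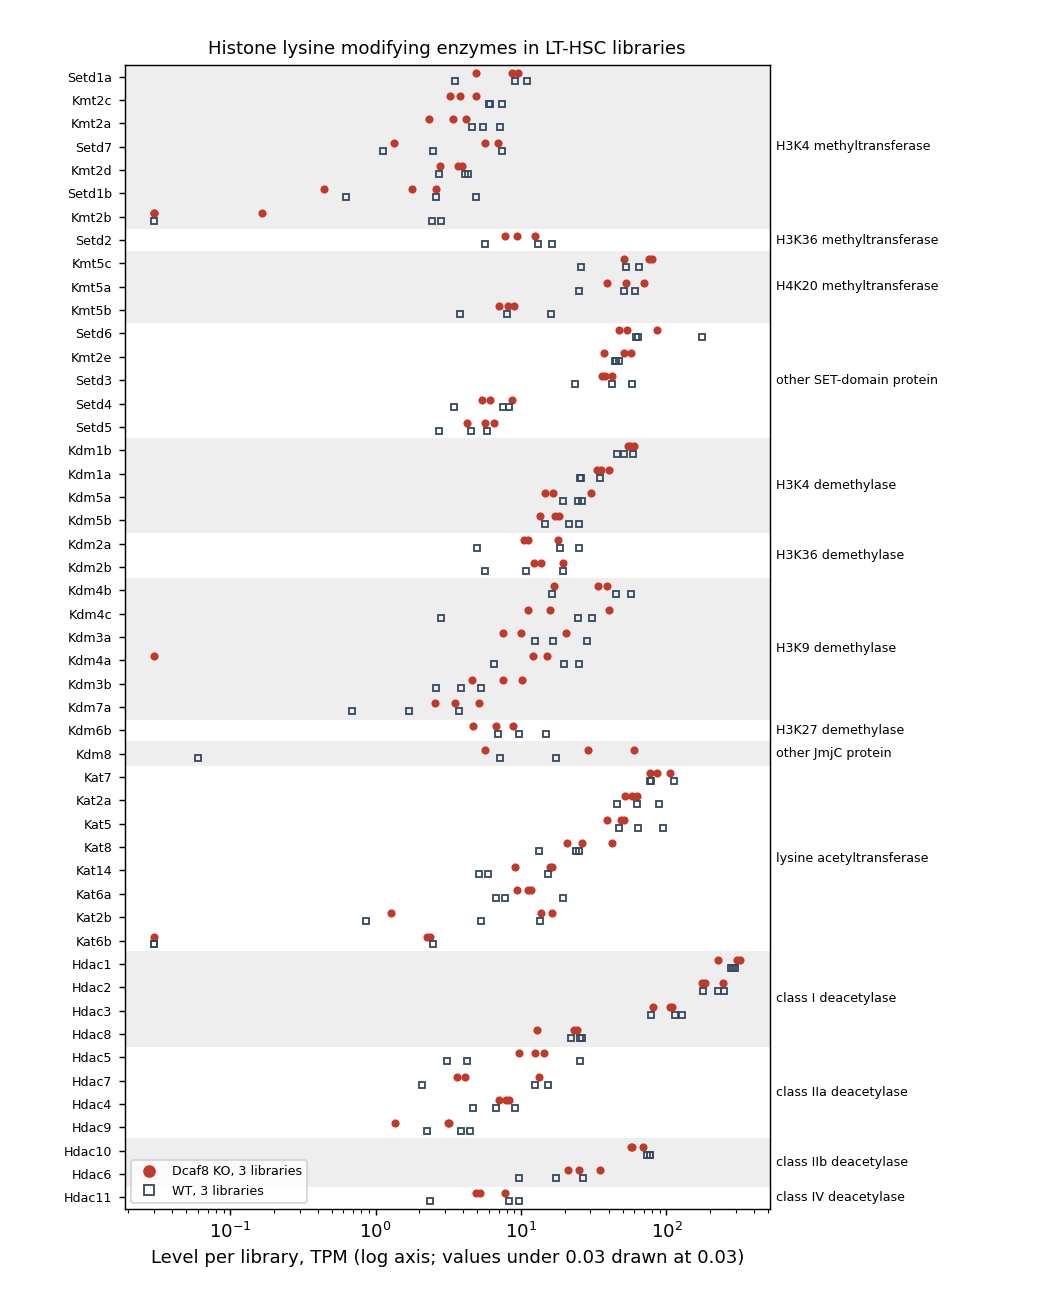
Level of each of the 49 genes in every library, in TPM on a log axis, with Dcaf8 KO libraries as filled circles above WT libraries as open squares, grouped by the reaction the enzyme is known for. Hdac1, Hdac2 and Hdac3 sit farthest right, and Kmt2b, Kat6b, Kdm4a and Kdm8 have libraries at or near 0.

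Between genotypes, the 49 genes showed no call and no common shift. By the quasi-likelihood test of edgeR, with p-values adjusted by Benjamini and Hochberg's method over all 14592 genes tested, 0 of 49 passed an adjusted p of 0.05, as did 0.0% of all genes, and the smallest adjusted p among the 49 was 0.841. At an unadjusted p under 0.05 there were 2 of 49 (4.08%) against 5.82% of all genes. Both were lower in knockout, where 2.35% of all genes were so called, and 0 were higher, against 3.47% of all genes. DESeq2 was run without that filter on low counts and gave no p for Kat6b. It called 0 of the other 48 after adjustment, against 0.861% of the 17779 genes with an adjusted p. It gave 4 of the 49 (8.16%) an unadjusted p under 0.05, against 5.68% of the 20237 genes with a p. Among the 14592 genes tested by edgeR, DESeq2 called 130 after adjustment and gave 894 an unadjusted p under 0.05. By limma-voom with sample weights 0 of 49 passed, as did 0.0% of all genes, and 2 of 49 had an unadjusted p under 0.05, against 5.31% of all genes. Values were higher in knockout for 21 genes, counting Setd1a whose log2 fold change was 0.00, and lower for 28 (higher in 50.9% of all genes), with a median log2 fold change of -0.08 against 0.01 over all genes tested. That median of -0.08 was 0.04 with limma-voom and between -0.19 and -0.02 without single libraries.

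The libraries of the genotypes did not overlap for 3 of the 49 genes (6.12%), against 10.3% of all genes. Kmt2a, Kmt2c and Hdac10 were the 3, each lower in every knockout library, as were 4.43% of all genes, and 0 of 49 were higher in every knockout library, against 5.91% of all genes. Log2 fold changes of at least 1 in either direction were found for Kmt2b, Kdm8 and Kdm4a, or 6.12% against 14.3% of all genes. For 14 genes (28.6%, against 29.7% of all genes) the 95% interval of the difference lay within a doubling or halving. Hdac1, Hdac2, Hdac3, Hdac4, Hdac10, Kat2a, Kat7, Kdm1a, Kdm1b, Kdm5a, Kdm5b, Kmt2d, Kmt2e and Setd3 were those genes. For the remaining genes the interval reached past a doubling or a halving.

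**Figure D2:**
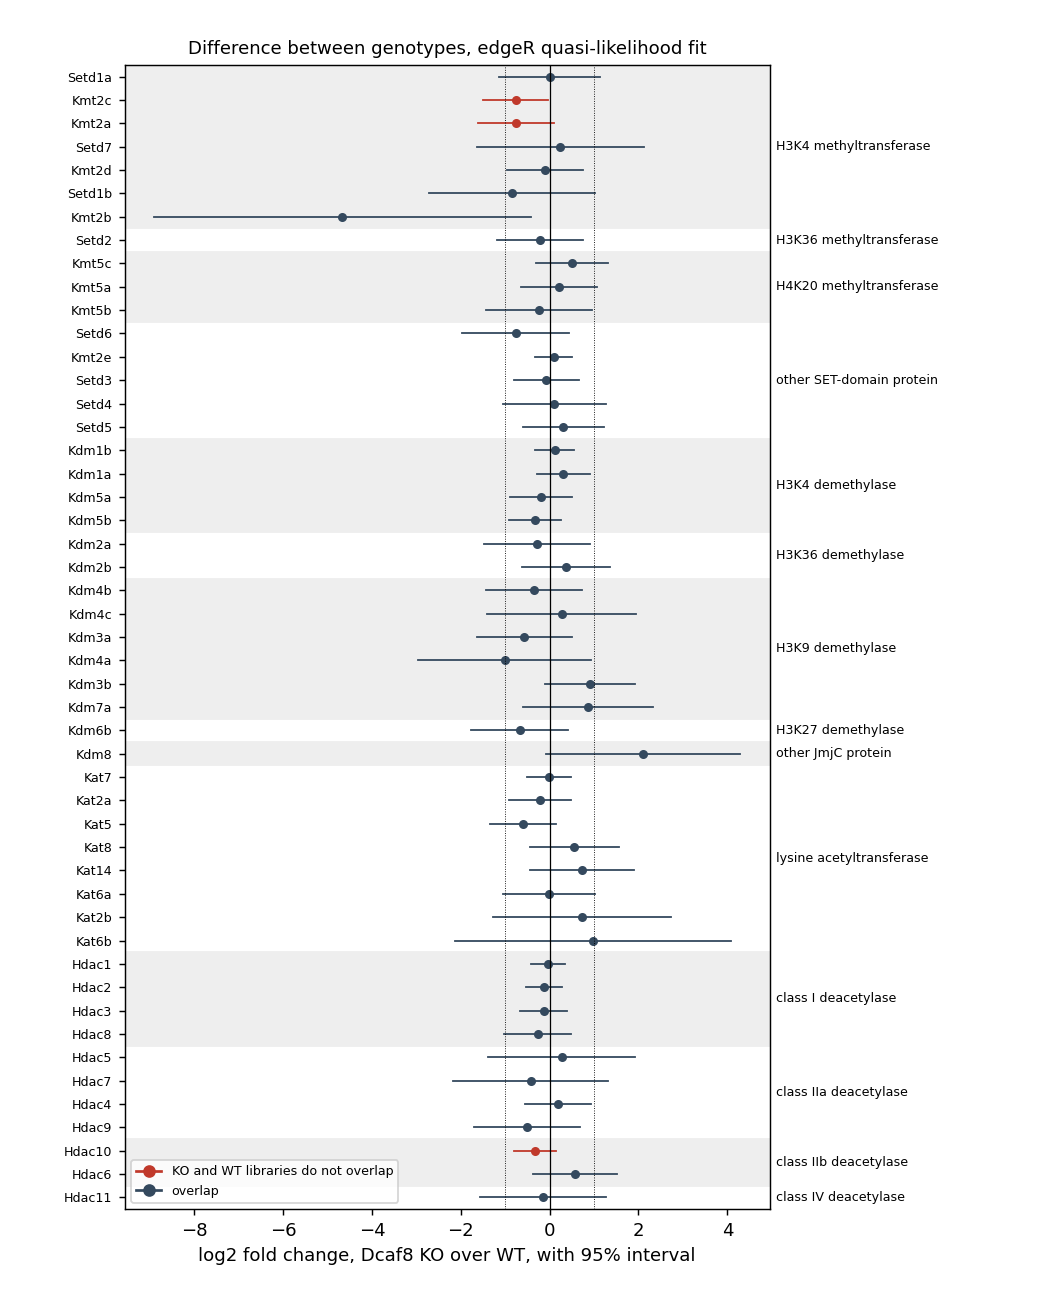
Log2 fold change of each of the 49 genes, Dcaf8 KO over WT, with its 95% interval, in the groups and order of the level plot, where red marks genes whose KO and WT libraries do not overlap. Dotted lines stand at a doubling and a halving, and the intervals of Kmt2b, Kdm8 and Kat6b reach far beyond them.

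Kmt2b and Kmt2c, H3K4 methyltransferase genes of the MLL family, had the lowest p of the 49 genes, while their relative Kmt2d was among the genes with the least difference. Of the 7 H3K4 methyltransferase genes, 0 passed the adjusted test, 5 had lower values in knockout, 2 had an unadjusted p under 0.05, both lower (2.35% of all genes tested), and their median log2 fold change was -0.76. Kmt2a encodes MLL1, which maintains Hox gene expression in blood stem cells and is broken by translocations in leukaemia. It stood at 22.9, 13.6 and 19.4 CPM in Dcaf8 KO replicates 1 to 3, against 39.4, 27.1 and 32.1 CPM in WT replicates 1 to 3. All KO libraries lay below all WT libraries, and the log2 fold change was -0.76 ± 0.37 (SE; edgeR adjusted p = 0.874). Without single libraries it ran from -0.94 to -0.62.

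Kmt2c, which encodes MLL3, an enzyme that monomethylates H3K4 at enhancers, stood at 25.7, 34.7 and 22.5 CPM in KO, against 41.1, 43.5 and 52.3 CPM in WT libraries. Again no libraries overlapped, with a log2 fold change of -0.77 ± 0.32 (SE; edgeR adjusted p = 0.841). It ran from -0.92 to -0.63 without single libraries, and the unadjusted p was over 0.05 without KO replicate 1 or 3, without WT replicate 2 or 3. Kmt2d, which encodes the close relative MLL4, did not share this pattern, with 25.8, 19.3 and 25.01 CPM in KO and 27.02, 30.5 and 19.1 CPM in WT libraries and a log2 fold change of -0.10 ± 0.36 (SE), which changed sign without single libraries.

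Kmt2b, which encodes MLL2, the methyltransferase of bivalent promoters, was close to uncounted in knockout cells, at 0.526, 0.0696 and 0 CPM, but also in WT replicate 3 at 0.101 CPM, beside 8.90 and 8.34 CPM in WT replicates 1 and 2. A count of 0 in KO replicate 3 allows up to 3 counts, or 0.136 CPM. The libraries therefore overlapped, and the log2 fold change of -4.67 ± 1.77 (SE; edgeR adjusted p = 0.841) had a 95% interval from -8.91 to -0.43. Of the fits without 1 library, only that without WT replicate 3 kept its unadjusted p under 0.05. A count of 0 does not show absence of the transcript.

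Setd1a and Setd1b encode methyltransferases that place much of the H3K4 trimethylation at promoters. Setd1a stood at 21.5, 11.6 and 20.1 CPM in KO and 20.4, 26.4 and 8.37 CPM in WT libraries, and Setd1b at 10.4, 7.52 and 1.81 CPM in KO and 2.48, 11.2 and 20.6 CPM in WT libraries. Both overlapped widely. An annotated readthrough gene, Gm49388, shares 51.8% of the exon bases of Setd1a on the same strand and had 0 counts in every library. The sources used here do not state how reads on shared bases were counted. The 0 therefore does not show that the level of Setd1a was unaffected. Setd7, a monomethyltransferase of H3K4 and of many other proteins, had 4.78, 21.4 and 25.6 CPM in KO and 8.90, 28.3 and 4.26 CPM in WT libraries, and its log2 fold change was 0.23 ± 0.80 (SE), and from -0.29 to 1.36 without single libraries.

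**Figure D3:**
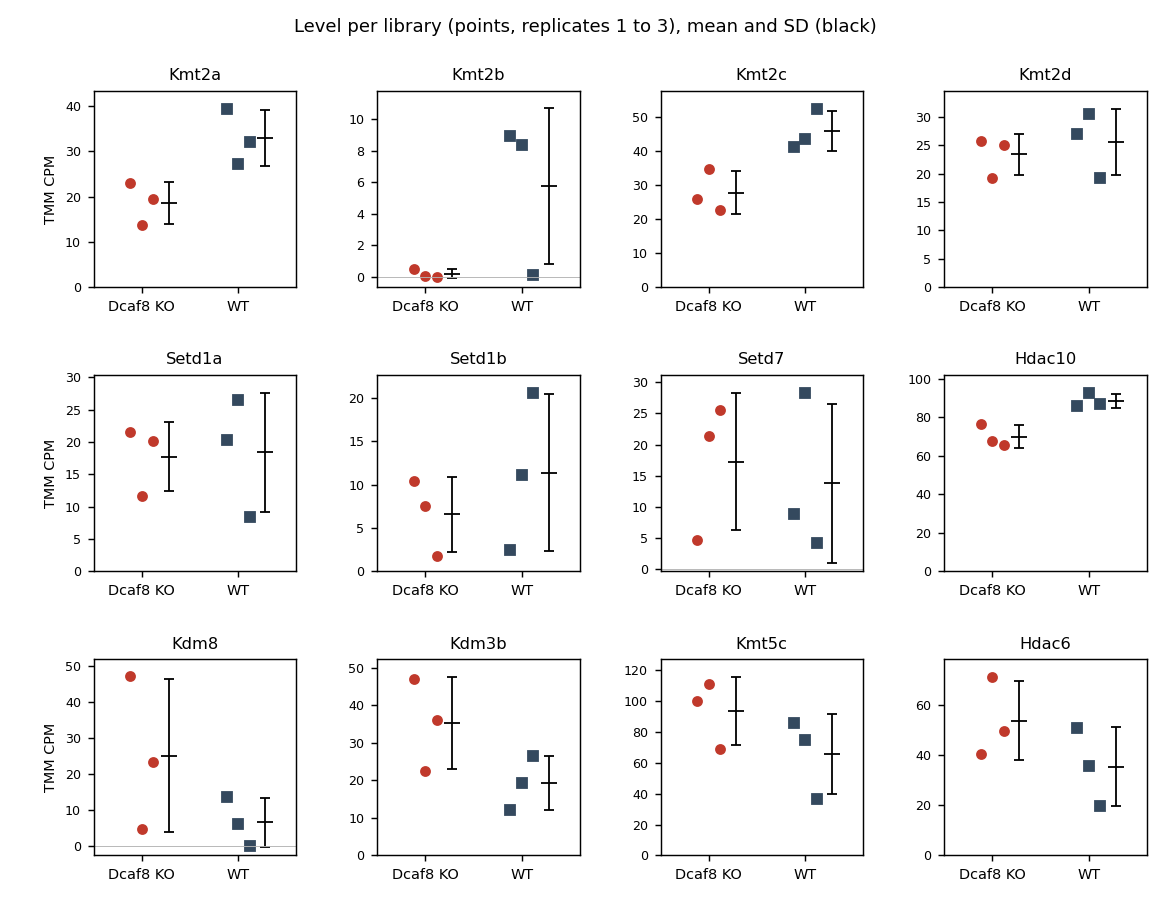
TMM-normalised CPM per library of the 7 H3K4 methyltransferase genes, Hdac10 and the 4 genes Kdm8, Kdm3b, Kmt5c and Hdac6, Dcaf8 KO left of WT, with points for replicates 1 to 3 and the mean with SD in black. KO points lie under all WT points for Kmt2a, Kmt2c and Hdac10, and WT replicate 3 falls to the KO level for Kmt2b.

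Summed over the 7 genes, H3K4 methyltransferase RNA stood at 25.6, 22.4 and 26.4 TPM in KO, against 32.5, 38.4 and 25.1 TPM in WT libraries, so the groups overlapped through WT replicate 3. The 4 H3K4 demethylase genes of the set (Kdm1a, Kdm1b, Kdm5a and Kdm5b, without Kdm5c and Kdm5d) summed to 126.2, 124.9 and 137.9 TPM in KO and 133.7, 120.1 and 119.2 TPM in WT libraries. The ratio of the first sum to the second was 0.203, 0.179 and 0.191 in KO and 0.243, 0.320 and 0.211 in WT libraries. Every KO ratio thus lay under every WT ratio, the nearest being 0.203 in KO replicate 1 and 0.211 in WT replicate 3. Of all single genes tested, 4.43% likewise lay lower in every knockout library by CPM, but no such share was computed for ratios of summed TPM. The first sum includes Kmt2a and Kmt2c, which lay so, and the ratio is therefore not separate from their values. No test is attached to these sums, which describe RNA and not enzyme activity. The like ratio of acetyltransferases to deacetylases was 0.432, 0.306 and 0.343 in KO and 0.315, 0.295 and 0.460 in WT libraries and overlapped.

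**Figure D4:**
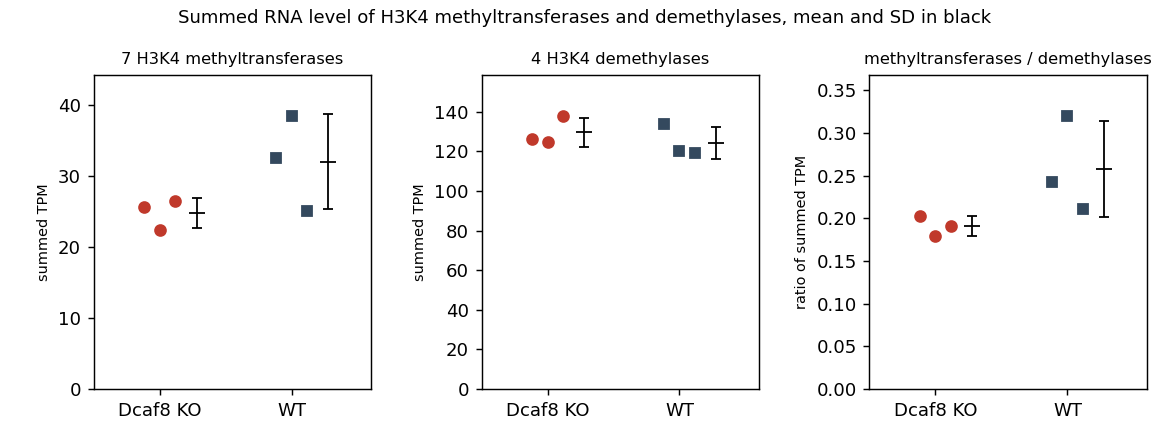
Summed TPM of the 7 H3K4 methyltransferase genes, of the 4 H3K4 demethylase genes, and their ratio, per library, Dcaf8 KO left of WT, with mean and SD in black and axes from 0. The ratio is 0.179 to 0.203 in KO libraries and 0.211 to 0.320 in WT libraries.

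Kmt2a and Kmt2c are both long transcripts, with 16670 and 20291 exon bases. Among all 305 genes tested with 15 kb of exon sequence or more the median log2 fold change was -0.06, and 6.23% lay lower in knockout with no overlap, against 4.43% of all genes tested. Of the 7 members of that length, 2 lay so. The part of transcript length in the values of Kmt2a and Kmt2c was not tested. Genes on the opposite strand share 2.27% of the exon bases of Kmt2a and 1.35% of those of Kmt2c.

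The start regions of Kmt2a and Kmt2c are shown because these genes lay lower in every knockout library, and that of Kdm8 because it had the smallest p among genes with higher values. The sequences are RefSeq's, on build GRCm38.p6, and run from 250 bases before to 50 bases after the annotated start. Capitals mark the GC box GGGCGG, a binding motif of SP1, on either strand.
Kmt2a, chr9:44881240-44881539, minus strand: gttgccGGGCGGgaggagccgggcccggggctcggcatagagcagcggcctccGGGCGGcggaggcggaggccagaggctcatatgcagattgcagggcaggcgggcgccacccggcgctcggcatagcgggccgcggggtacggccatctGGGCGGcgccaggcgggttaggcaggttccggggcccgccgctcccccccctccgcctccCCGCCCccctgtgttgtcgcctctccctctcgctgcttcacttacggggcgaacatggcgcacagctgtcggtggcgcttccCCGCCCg
Kmt2c, chr5:25498734-25499033, minus strand: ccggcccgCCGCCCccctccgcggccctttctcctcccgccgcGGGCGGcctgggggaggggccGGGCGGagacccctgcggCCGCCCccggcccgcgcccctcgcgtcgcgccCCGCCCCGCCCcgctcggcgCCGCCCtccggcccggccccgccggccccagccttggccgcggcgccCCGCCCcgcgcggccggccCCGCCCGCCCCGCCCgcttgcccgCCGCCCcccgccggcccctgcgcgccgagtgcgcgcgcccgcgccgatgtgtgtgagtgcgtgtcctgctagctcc
Kdm8, chr7:125444370-125444669, plus strand: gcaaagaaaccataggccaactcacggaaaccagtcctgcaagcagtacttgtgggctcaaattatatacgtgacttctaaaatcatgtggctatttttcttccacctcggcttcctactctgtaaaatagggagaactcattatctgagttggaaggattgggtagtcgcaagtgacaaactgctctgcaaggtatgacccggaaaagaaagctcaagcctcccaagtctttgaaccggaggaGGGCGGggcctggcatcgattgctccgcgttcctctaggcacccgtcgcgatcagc
The Kmt2a window held 5 GC boxes and 75.7% G and C, the Kmt2c window 12 GC boxes, some overlapping, and 88.0%, and the Kdm8 window 1 GC box and 50.0%. Over the family, 37 of 49 genes matched a start region, with 55 windows of 300 bases. Windows with over 50% G and C and an observed to expected CpG ratio over 0.6 made up 74.5% of these, against 65.7% of 11717 windows of 9179 protein-coding genes tested. GGGCGG was present on either strand in 61.8% of the family's windows and 62.5% of all windows, CCAAT in 41.8% and 38.0%, CACGTG in 5.46% and 10.1%, and TATAAA in 3.64% and 6.91%. The matches describe letters in a window and no binding was measured.

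Other methyltransferases varied without a common direction. Setd2, the main enzyme for trimethylation of H3K36 and a tumour suppressor in leukaemia, stood at 44.1, 29.2 and 34.4 CPM in KO and 57.6, 49.9 and 21.3 CPM in WT libraries, a log2 fold change of -0.22 ± 0.41 (SE). Here WT replicate 3 was the lowest of all libraries. Kmt5a, which monomethylates H4K20 through the cell cycle, stood at 122.8, 72.2 and 95.8 CPM in KO and 43.6, 114.4 and 94.99 CPM in WT libraries. Kmt5c, which adds further methyl groups at H4K20, stood at 100.4, 111.4 and 69.2 CPM in KO and 85.6, 74.95 and 36.5 CPM in WT libraries. The log2 fold change of 0.50 ± 0.35 (SE; edgeR adjusted p = 0.937) was 0.21 without WT replicate 3. The third H4K20 enzyme gene, Kmt5b, had a log2 fold change of -0.24 ± 0.51 (SE), and from -0.62 to 0.48 without single libraries.

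Among SET-domain proteins with other or disputed substrates, Kmt2e had the highest mean CPM, though Setd6 stood higher per length at a median of 62.6 TPM. It encodes MLL5, which has no proven methyltransferase activity and is needed for blood stem cell fitness in mice. Kmt2e stood at 197.3, 135.0 and 181.9 CPM in KO and 154.0, 162.5 and 172.0 CPM in WT libraries, a log2 fold change of 0.09 with a 95% interval from -0.33 to 0.51. Setd6, which methylates the NF-kB subunit RelA, stood at 33.7, 57.3 and 30.6 CPM in KO and 39.9, 41.4 and 116.5 CPM in WT libraries. WT replicate 3 set that difference, since the log2 fold change was -0.77 ± 0.51 (SE) with it and -0.06 without it. Setd3, an actin histidine methyltransferase, Setd4 and Setd5 had log2 fold changes of -0.08, 0.10 and 0.30, and those of Setd3 and Setd4 changed sign without single libraries.

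H3K4 demethylases had narrower intervals of the difference than most of the family, though Kdm5a varied widely between KO libraries. Kdm1a encodes LSD1, a flavin-dependent demethylase of the CoREST complex that is needed for blood differentiation in mice. It stood at 68.7, 60.3 and 62.2 CPM in KO and 43.9, 64.1 and 46.3 CPM in WT libraries, a log2 fold change of 0.31 ± 0.26 (SE). Kdm1b, its relative LSD2, stood at 101.7, 114.6 and 101.8 CPM in KO and 106.0, 99.1 and 88.2 CPM in WT libraries. Kdm5a and Kdm5b encode demethylases of trimethylated H3K4, with log2 fold changes of -0.19 ± 0.30 and -0.34 ± 0.25 (SE). Kdm5b stood at 73.5, 98.3 and 103.1 CPM in KO and 135.7, 85.8 and 124.9 CPM in WT libraries, and Kdm5a at 78.0, 72.4 and 144.9 CPM in KO and 114.1, 97.8 and 131.4 CPM in WT libraries. For each of these 4 genes the 95% interval lay within a doubling or halving.

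The H3K36 demethylase genes Kdm2a and Kdm2b, whose products bind unmethylated CpG islands, went opposite ways within overlapping values. Kdm2a stood at 49.8, 55.8 and 87.7 CPM in KO and 119.1, 95.02 and 25.3 CPM in WT libraries. Kdm2b, which also recruits a variant Polycomb complex, stood at 70.1, 46.3 and 50.7 CPM in KO and 69.6, 41.6 and 21.7 CPM in WT libraries. In both, WT replicate 3 was the lowest library.

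Genes of H3K9 demethylases had wide intervals, and 0 of 6 lay within a doubling or halving. Kdm3b, with the second smallest p among genes with higher values, stood at 47.0, 22.5 and 36.1 CPM in KO and 12.0, 19.3 and 26.4 CPM in WT libraries. The log2 fold change of 0.91 ± 0.43 (SE; edgeR adjusted p = 0.869) was 0.64 without KO replicate 1. The related Kdm3a had a log2 fold change of -0.57 ± 0.46 (SE). Kdm4b stood at 63.2, 28.8 and 56.6 CPM in KO and 91.7, 78.2 and 28.1 CPM in WT libraries. Kdm7a, a demethylase of H3K9 and H3K27, stood at 11.7, 8.98 and 17.6 CPM in KO and 5.57, 13.3 and 2.44 CPM in WT libraries, and its log2 fold change of 0.86 was 1.75 without WT replicate 2 and 0.44 without WT replicate 3.

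Kdm4a, a demethylase of H3K9 and H3K36, showed how a single library shaped a value. It had 0 counts in KO replicate 3, which allows up to 0.136 CPM, beside 23.1 and 30.4 CPM in the other KO libraries and 47.4, 40.2 and 13.1 CPM in WT libraries. Its log2 fold change was -1.01 ± 0.83 (SE) over all libraries and lay between -1.51 and -0.35 without single libraries.

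Kdm6b, a demethylase of H3K27, stood at 20.2, 16.3 and 11.1 CPM in KO and 22.2, 17.2 and 36.5 CPM in WT libraries. Its log2 fold change of -0.67 ± 0.47 (SE) was -0.30 without WT replicate 3. An antisense gene, Kdm6bos, shares 286 exon bases with Kdm6b, and the sources used here do not give the strand setting, so reads from there cannot be told apart. Exons of 18 of the 49 genes overlap a gene on the opposite strand. A single such gene covers 24.6% of the exon bases of Kdm3b, 22.4% of Hdac4, 15.4% of Hdac11 and 12.1% of Kat5. Those opposite Kdm3b and Hdac4 were not among the counted identifiers.

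Kdm8 encodes JMJD5, a JmjC oxygenase whose action on histones is disputed, and it had the largest upward difference of the family. It stood at 47.2, 4.73 and 23.4 CPM in KO, against 13.6, 6.06 and 0.0507 CPM in WT libraries. KO replicate 2 lay below WT replicates 1 and 2, so the groups overlapped, and the log2 fold change was 2.11 ± 0.94 (SE; edgeR adjusted p = 0.865). It was 1.31 without KO replicate 1, 1.502 without WT replicate 3 and 3.13 without WT replicate 1.

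Acetyltransferase genes showed no common direction, with 4 of 8 higher and 4 lower in knockout and 0 called. Kat7 encodes HBO1, which acetylates histone H3 and is needed to keep adult blood stem cells in mice. It stood at 194.3, 149.2 and 162.6 CPM in KO and 143.6, 151.3 and 217.7 CPM in WT libraries, with a log2 fold change of -0.01 and a 95% interval from -0.51 to 0.48. Kat6a, which encodes MOZ, also needed for blood stem cells in mice, stood at 34.1, 30.1 and 36.7 CPM in KO and 58.5, 25.3 and 21.5 CPM in WT libraries. Its log2 fold change of -0.02 was 0.54 without WT replicate 1.

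Kat5, the catalytic subunit of the TIP60 complex, stood at 59.3, 59.2 and 46.7 CPM in KO and 73.8, 58.9 and 116.6 CPM in WT libraries. Its log2 fold change of -0.60 ± 0.32 (SE; edgeR adjusted p = 0.881) was -0.27 without WT replicate 3. Kat14, a subunit of the ATAC acetyltransferase complex, stood at 25.5, 14.8 and 25.2 CPM in KO and 23.5, 9.94 and 8.52 CPM in WT libraries. Its log2 fold change of 0.73 ± 0.50 (SE) was 1.29 without WT replicate 1 and 0.47 without WT replicate 3. Kat6b, the paralogue of Kat6a, was counted at 13.2 and 13.2 CPM in KO replicates 1 and 2 and at 13.7 CPM in WT replicate 1, and at no more than 0.0970 CPM in the remaining 3 libraries, so that both genotypes held high and low libraries. Kat2b, which encodes PCAF, was likewise uneven, with 22.2, 2.16 and 26.9 CPM in KO and 8.44, 23.3 and 1.47 CPM in WT libraries.

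Class I deacetylases were the most precisely measured group by the median width of the interval. In knockout 4 of 4 had slightly lower values, with log2 fold changes of -0.27 to -0.04. Hdac8, at -0.27, had a wider interval than the others, from -1.02 to 0.485, which reached past a halving. Hdac1 stood at 257.7, 386.7 and 356.3 CPM in KO and 335.5, 336.1 and 348.0 CPM in WT libraries, with a 95% interval of the log2 fold change from -0.42 to 0.35. Hdac2 stood at 274.2, 275.4 and 370.3 CPM in KO and 365.5, 359.2 and 280.2 CPM in WT libraries, with an interval from -0.53 to 0.29. Hdac3 stood at 109.0, 149.5 and 150.0 CPM in KO and 171.0, 113.1 and 161.8 CPM in WT libraries, with an interval from -0.66 to 0.40. Differences of these 3 genes were within the spread between libraries.

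Hdac10, whose enzyme removes acetyl groups from polyamines, stood at 76.8, 67.9 and 65.5 CPM in KO, against 85.7, 92.7 and 87.3 CPM in WT libraries. No libraries overlapped, and the difference was small, with a log2 fold change of -0.34 ± 0.20 (SE; edgeR adjusted p = 0.917), from -0.42 to -0.28 without single libraries. DESeq2 gave an adjusted p of 0.577. Hdac6, a mainly cytoplasmic deacetylase of tubulin, stood at 40.5, 71.1 and 49.7 CPM in KO and 51.0, 35.6 and 19.7 CPM in WT libraries. Its log2 fold change of 0.57 ± 0.40 (SE) was 0.29 without WT replicate 3 and 0.91 without WT replicate 1. Of the class IIa genes, Hdac4 stood at 40.9, 38.8 and 44.2 CPM in KO and 47.0, 37.9 and 25.9 CPM in WT libraries, whereas Hdac5 had 36.2, 29.8 and 43.0 CPM in KO and 73.3, 9.65 and 13.0 CPM in WT libraries. Hdac11, the sole class IV gene, stood at 6.27, 7.03 and 10.2 CPM in KO and 10.4, 3.25 and 13.0 CPM in WT libraries.

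The spread between libraries of 1 genotype, as estimated by edgeR, tended to be smaller at higher levels. The estimate for each gene is drawn towards a trend with level, so part of this relation comes from the method. The biological coefficient of variation, edgeR's estimate of that spread, had a median of 43.6% over the 49 genes, against 51.0% over all genes tested and 41.7% over the 4432 genes in the middle range of the family's levels, 19.4 to 73.6 CPM. It was smallest for Hdac1 at 18.2%, Hdac2 at 18.9% and Kdm1b at 19.0%, and largest for Kat6b at 215%, Kmt2b at 151% and Kdm4a at 134%. WT libraries varied more than KO libraries for 35 of 49 genes (71.4%), as for 62.4% of all genes tested. WT replicate 3 held the lowest value of 16 of the 49 genes (32.6%, against 22.6% of all genes tested) and the highest of 11. WT replicate 1 held the highest value of 15 (30.6%, against 18.3% of all genes tested).

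**Figure D5:**
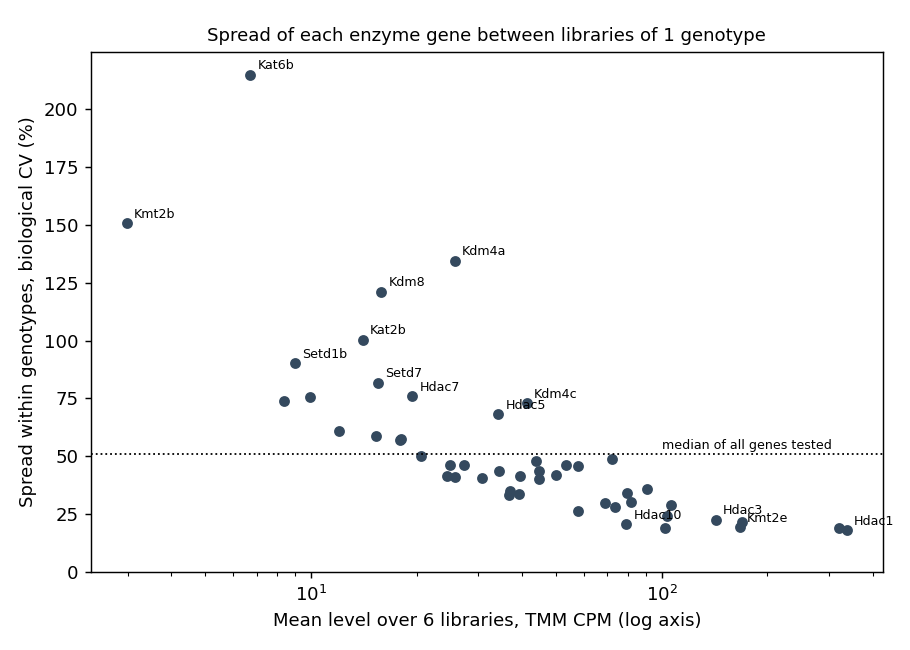
Biological coefficient of variation within genotypes, in percent, of each of the 49 genes against its mean level in TMM-normalised CPM on a log axis, with the median of all genes tested as a dotted line. Hdac1 lies lowest at 18.2%, and Kat6b, Kmt2b, Kdm4a, Kdm8 and Kat2b lie highest.

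Partners and other enzymes of the same marks, from lists of 37, 14, 40 and 41 genes, had 0 calls by the adjusted test too, and their smallest adjusted p was 0.800. Among other histone lysine methyltransferases, demethylases, acetyltransferases and sirtuins, 36 were tested, 25 had lower and 11 higher values in knockout, the median log2 fold change was -0.10, and 4 had an unadjusted p under 0.05, each lower (2.35% of all genes tested). Hat1, the acetyltransferase of newly made histone H4, stood at 137.9, 164.6 and 157.9 CPM in KO, against 189.6, 199.1 and 244.4 CPM in WT libraries. Its libraries did not overlap, at a log2 fold change of -0.47 ± 0.17 (SE; edgeR adjusted p = 0.800). Of the 36, 5 lay lower in every KO library, against 4.43% of all genes tested, and 0 lay higher, against 5.91%. Phf2, an H3K9 demethylase, stood at 0.570, 0 and 0.0452 CPM in KO and 5.07, 1.21 and 1.52 CPM in WT libraries. Dot1l, the H3K79 methyltransferase, and the coactivator gene Ncoa3 had log2 fold changes of 0.84 ± 0.50 and 0.83 ± 0.56 (SE).

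Of the shared subunits of H3K4 methyltransferase complexes, 8 of 13 tested had higher and 5 lower values, with a median log2 fold change of 0.07 and 0 with an unadjusted p under 0.05. Wdr5, a core subunit that holds the MLL enzymes in their complex, stood at 135.1, 154.0 and 183.8 CPM in KO and 128.8, 129.5 and 130.4 CPM in WT libraries. Every KO library lay above every WT library, as for 5.91% of all genes tested and no other of the 13. The log2 fold change of Wdr5 was 0.28 ± 0.18 (SE). Wdr82 of the Setd1 complexes had 0.84 ± 0.54, and Men1 and Paxip1 had -0.09 ± 0.21 and -0.18 ± 0.58 on the same scale.

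Co-repressor subunits that carry deacetylases had 21 of 38 tested genes higher and 17 lower, a median log2 fold change of 0.04 and 2 with an unadjusted p under 0.05, 1 in each direction (5.82% of all genes tested). Ncor1, the scaffold that activates Hdac3, averaged 187.1 ± 16.3 CPM in KO and 262 ± 63.9 CPM in WT libraries (SD, n = 3 each). WT replicate 1 at 188.7 CPM lay within the KO range, at a log2 fold change of -0.49 ± 0.21 (SE; edgeR adjusted p = 0.851). Mier2, an adaptor of Hdac1 and Hdac2, stood at 42.3, 18.2 and 29.3 CPM in KO and 20.2, 8.68 and 11.5 CPM in WT libraries. Sap130 of the Sin3 complex and Arid4b had log2 fold changes of 0.79 ± 0.38 and -0.47 ± 0.28 (SE). Of the 38, 1 (Sap130) lay higher and 1 lower in every KO library, against 5.91% and 4.43% of all genes tested. Acetyltransferase partners had 14 of 40 tested genes higher and 26 lower, a median of -0.10 and 0 with an unadjusted p under 0.05. Of the 40, 3 lay higher and 2 lower in every KO library, against the same shares of all genes. There Mcrs1, a subunit of the Kat8 complex NSL, stood at 168.0, 146.3 and 170.3 CPM in KO, against 84.1, 135.9 and 132.8 CPM in WT libraries, at a log2 fold change of 0.46 ± 0.22 (SE). Jade1 had 0.53 ± 0.30, Mbip -0.74 ± 0.34 and Msl1 -1.04 ± 0.48 on the same scale.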

How the data were processed

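The authors deposited a table of raw read counts per Ensembl gene for 6 libraries, 3 Dcaf8 KO and 3 WT. Per the labels' protocols, RNA of 50 sorted cells per library was amplified full-length, tagmented and sequenced. Trimmomatic 0.39, HISAT2 2.2.1, Picard 2.26.1, HTSeq 1.99.2, DESeq2 1.38.3 and the build mm39 are named without roles, per the submitters' processing notes. The annotation release and strand setting are not stated there. The labels mention no molecular identifiers, and limits for a count of 0 cover counting error only. Intervals of differences came from the edgeR fit, which includes the spread between libraries.

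Symbols were found for 94.1% of identifiers (99.87% of counts); gene types and exon lengths for TPM came from GENCODE M21 on GRCm38, which is not the build of the counts, and coordinates are given for RefSeq start regions alone. The test was edgeR 4.0.16 (R 4.3.3) with filterByExpr (minimum count 10, minimum total 15), TMM, robust dispersions, a robust quasi-likelihood fit (legacy off) on genotype, and Benjamini-Hochberg adjustment over all genes. Standard errors came from the F statistic. Marker sums are CPM of the total count, and 1 marker list is not reported here. Alternatives were upper-quartile or RLE factors, no filter, a filter of 5 CPM in 3 libraries, the legacy fit, DESeq2 1.42.0, limma-voom (limma 3.58.1), a replicate block and each library left out. Values per library were given for the 6 genes per direction with the smallest p, the most abundant gene of each reaction group and 11 genes known from blood stem cells, and for partners up to 2 per direction; other genes were named after their values were seen. The genes and lists were chosen with earlier results of these data known. Exon-length groups and promoter motifs were added after seeing the data. The series' text names 3 mice per genotype.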

Additional observations from a re-analysis of the deposited data

How the results depend on the processing

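Under every alternative run, 0 of the genes tested among the 49 passed the adjusted threshold. DESeq2 gave a p for 48 of them, without Kat6b, the strict filter kept 48, without Kmt2b, and the other settings tested all 49. DESeq2 called 153 genes of the whole table and every other setting called 0. The number of the 49 with an unadjusted p under 0.05, a count added after seeing the data, was 2 as reported, 4 with DESeq2, and 1 each with the legacy fit, the strict filter and the replicate block. It ran from 0 to 4 without single libraries, with 0 without KO replicate 1, 1 without KO replicate 3 and 4 without WT replicate 1. Over all genes that count was 849 as reported, 559 with the legacy fit, 1149 with DESeq2 and 714 to 1445 without single libraries (1445 without WT replicate 1). The number with higher values ran from 19 to 25. Same-numbered libraries did not deviate together (correlations 0.059, -0.038 and 0.006), so the replicate block reflects a number only; under it 0 genes were called, and Kmt2c alone of Kmt2b and Kmt2c lost its unadjusted p under 0.05.

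Setd1a, at 0.00, was -0.057 with DESeq2, -0.053 with the legacy fit, -0.18 with limma-voom, -0.007 with RLE factors and with the strict filter, -0.013 with upper-quartile factors, and -0.36 to 0.39 without single libraries. With limma-voom Kat7 turned to 0.042, Hdac11 to 0.26 and Kat6a to 0.087. Without single libraries the log2 fold change took both signs for 20 of the 49 genes. Beside Setd1a, it ran from -0.027 to 0.22 for Kmt2e, -0.55 to 0.028 for Setd2, -0.089 to 0.49 for Kmt5a, -0.71 to 0.10 for Kdm2a, -0.13 to 0.20 for Kat7, -0.15 to 0.12 for Hdac1, -0.024 to 0.37 for Hdac4, -0.58 to 0.26 for Hdac11, -0.28 to 0.54 for Kat6a, -0.30 to 0.014 for Hdac3, -0.29 to 1.36 for Setd7, -0.62 to 0.48 for Kmt5b, -0.28 to 0.057 for Kmt2d, -0.36 to 0.20 for Setd3, -0.20 to 0.28 for Setd4, -0.18 to 1.71 for Hdac5, -1.32 to 0.10 for Hdac7, -0.47 to 0.83 for Kdm4c and -0.41 to 0.095 for Kat2a. The cause was not tested. With 3 libraries per genotype an exact permutation test of 1 gene cannot go below 0.1.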

Other observations

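Kdm6bos, the antisense gene at Kdm6b, was chosen after its counts were seen. It had 0 counts in all Dcaf8 KO libraries, a limit of 3 counts each, and 21, 6 and 46 counts in WT replicates 1 to 3. Over all identifiers, 36 had 0 counts in all KO libraries and counts in all WT libraries, and 133 had the opposite pattern. The sex-linked demethylase genes that the choice of genes left out had, in KO replicates 1 to 3 against WT replicates 1 to 3, 98, 148 and 271 against 200, 316 and 399 counts (Kdm5c), 757, 136 and 603 against 793, 947 and 1523 counts (Kdm6a), and 367, 373 and 0 against 657, 606 and 742 counts (Kdm5d, on the Y chromosome).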
